A study of Mus musculus with 4 samples.

Results

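A set of 10 genes with known roles in neural tissue was followed through a knockdown of Tox4 in mouse epiblast stem cells. These are pluripotent cells derived from the embryo after implantation. They were the rows of the deposited expression table with the symbols Svop, Vgf, Sez6, Cbln1, Ptn, Fabp7, Ncam1, Lrrn2, Tubb3 and Nes, 10 of 15429 genes in the table. All 10 passed the filter for testing, a mean of at least 1 FPKM (fragments per kilobase of gene, scaled for sequencing depth) over the 4 libraries, as did 12403 genes in all. The genes were chosen with their difference between the groups known, so what the fit over all genes gives for these 10 describes the choice and is no independent test of any of them. Every library came from the Oct4-GFP line OE7, which carries the Oct4-Gip transgene, at passages 21 to 25, in N2B27 medium on fibronectin with Activin A (20 ng/ml) and Fgf2 (12 ng/ml). The control group had 2 libraries of cells given 1000 ng Luc esiRNA, and the knockdown group had 2 libraries of cells given 1000 ng Tox4 esiRNA; both were transfected with 2 µl lipofectamine 2000. An esiRNA is a mixture of short interfering RNAs cut from 1 long double-stranded RNA. All libraries derive from 1 line, and whether the libraries of a group were separate cultures is not stated, so the spread between them may be technical.

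In neurons, peptide precursors and processing enzymes are stored in dense-core granules and released by regulated exocytosis, while classical transmitters are held in synaptic vesicles. Secreted and membrane-bound organisers of the cerebellin and neurexin kinds align the 2 sides of a synapse, and adhesion proteins of the immunoglobulin and leucine-rich repeat families hold neurites together. Neural progenitors of the early neural tube carry the intermediate filament protein nestin and the lipid carrier Fabp7, and class III beta-tubulin is a common marker of young neurons. Epiblast cells can enter the neural lineage when Activin and Fgf signals are withdrawn.

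The knockdown and the cell label were checked first. Tox4 (ENSMUSG00000016831) was at 16.7 and 17.5 FPKM in the Luc libraries and at 8.65 and 8.89 FPKM in the Tox4 libraries, 0.512 of the control level, and it passed the threshold in limma under all 13 alternative settings. Reads worked back from the FPKM values totalled 12778044 to 19008803 per library, and a tested gene had a median of 548 reads in a library. All 10 epiblast markers on the list passed the filter, with the Oct4 gene Pou5f1 the highest at 582 to 613 FPKM, and they summed to 1827 and 1800 FPKM in the Luc libraries and 1706 and 1747 FPKM in the Tox4 libraries. Of the 10, 1 (Sox2) rose and 1 (Tdgf1, a Nodal co-receptor gene) fell in limma, against 1.89% and 2.62% of all tested genes. The groups did not overlap for 1 gene as higher and 6 as lower, against 25.3% and 26.7% of all tested genes. The calls of Sox2 and Tdgf1 were lost with no intensity trend in the variance model, and that of Sox2 also with no filter on low values. Tdgf1 went from 404 and 390 to 328 and 325 FPKM (log2 difference -0.28, SE 0.03, limma adjusted p = 0.0161, lost without Luc replicate 1 or Luc replicate 2 and up to 0.141 over the alternatives). The part of these epiblast markers in the differences of the 10 neural genes was not tested. Of 9 mature neuron markers with a row, 4 were under 1 FPKM in every library. The summed level of the 9 was 15.5 and 16.4 FPKM in the Luc libraries and 17.2 and 16.4 FPKM in the Tox4 libraries. Of the 4 tested, 0 passed in limma in either direction. Gad2 was higher without overlap (3.24 and 3.40 against 5.07 and 4.45 FPKM) and Snap25 lower without overlap (3.46 and 3.68 against 3.09 and 2.65 FPKM). Map2 and Syp overlapped.

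With Tox4 esiRNA 8 of the 10 genes were higher and past the limma threshold (adjusted p under 0.05 over all genes tested), a state reached by 1.89% of all tested genes (4.51% in either direction), and 2, Tubb3 and Nes, were not past it. Because the genes were picked on this contrast, nothing is read from that count. The ratio of group means was above 2 for Svop, Vgf, Sez6 and Cbln1, above 1.5 for 7 genes, and lowest among the 8 for Ncam1 at 1.29. The FPKM values of the groups did not overlap, with the Tox4 libraries higher, for the same 8 genes, against 25.3% of all tested genes. The summed level of these 8 was 62.9 and 61.6 FPKM in the Luc libraries and 113 and 118 FPKM in the Tox4 libraries. The median difference over the 10 was 0.85 on the log2(FPKM + 1) scale, where low genes appear to differ less than they do, against -0.0034 over all tested genes. In RNA from whole cultures, more cells that express a gene and more RNA of it per cell cannot be told apart.

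**Figure D1:**
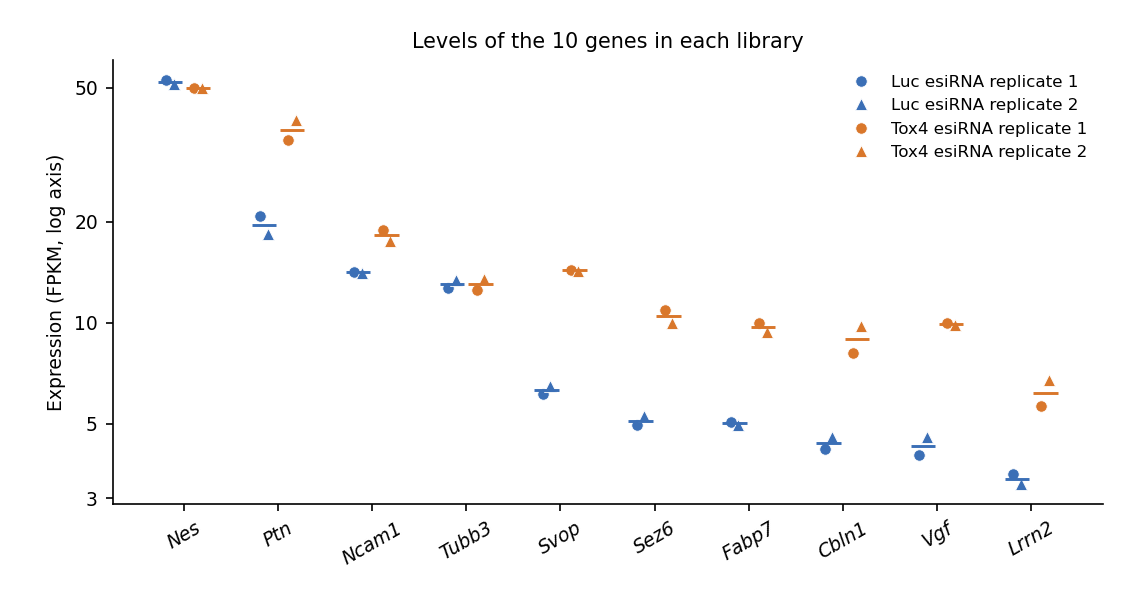
FPKM (log axis) of each of the 10 genes in the 2 Luc esiRNA libraries (blue) and the 2 Tox4 esiRNA libraries (orange), with circles for replicate 1, triangles for replicate 2 and short bars for group means. The orange points of 8 genes lie above both blue points, those of Tubb3 cover the same range and those of Nes lie just below.

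Svop encodes a transporter-like membrane protein of synaptic vesicles and lies on the minus strand of chromosome 5 (ENSMUSG00000042078, 114026910 to 114091570, GRCm38). Its level was 6.15 FPKM in Luc replicate 1, 6.46 FPKM in Luc replicate 2, 14.4 FPKM in Tox4 replicate 1 and 14.3 FPKM in Tox4 replicate 2, from 368, 305, 668 and 575 reads. The group means were 6.31 ± 0.219 and 14.4 ± 0.0713 FPKM (SD, n = 2), and the values of the other genes are given in the same order of libraries. The gap between the Tox4 libraries was 0.702% of their mean, under the 5.69% that counting reads alone gives as 1 SD. Where a gap is under that of counting, the printed SD understates the uncertainty. Both knockdown libraries were above both controls, and the lowest of them was 2.21 times the highest control. The difference was 1.07 (SE 0.05) on the log2(FPKM + 1) scale, the 12th highest of the 12403 genes. Exons of Usp30 on the opposite strand overlap 161 bases of its exons, and the strand used in counting is not given in the sources used here. Usp30, a mitochondrial deubiquitinase gene, was at 13.7 and 14.3 FPKM with Luc esiRNA and 13.1 and 14.2 FPKM with Tox4 esiRNA, so its groups overlapped.

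Vgf encodes a precursor of secreted neuropeptides that enters dense-core granules (ENSMUSG00000037428, chromosome 5, 137026392 to 137033351, plus strand). It was at 4.03 and 4.56 FPKM in the Luc libraries and at 9.99 and 9.84 FPKM in the Tox4 libraries, on 199, 178, 383 and 327 reads (means 4.29 ± 0.380 and 9.92 ± 0.106 FPKM, SD, n = 2). The ratio of means, 2.31, was the highest of the 10 genes, and the difference was 1.05 (SE 0.07) on the log2(FPKM + 1) scale. The gap between the Luc libraries was 12.5% of their mean, close to the 10.3% that counting reads alone gives as 1 SD. Between the Tox4 libraries the gap was 1.52%, under 7.53%, so the printed SD of that group understates the uncertainty.

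Ptn encodes pleiotrophin, a heparin-binding growth factor of the developing nervous system (ENSMUSG00000029838, chromosome 6, 36714929 to 36810220, minus strand). Its values were 20.7 and 18.4 FPKM with Luc esiRNA and 34.9 and 40.1 FPKM with Tox4 esiRNA, on 223, 156, 291 and 290 reads (means 19.6 ± 1.66 and 37.5 ± 3.69 FPKM, SD, n = 2). Every knockdown value was above every control value, with a ratio of means of 1.92. The shortest whole gene length that returned its FPKM values was 553 bases, against 3433 bases of annotated exons in GENCODE. The length used could be a multiple of that, with the reads multiplied alike. Its level relative to the other genes depends on the length used, while its ratio between groups does not.

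Cbln1 encodes a secreted synapse organiser of the complement C1q family that bridges neurexins and delta glutamate receptors (ENSMUSG00000031654, chromosome 8, 87468405 to 87472609, minus strand). It was at 4.20 and 4.58 FPKM in the Luc libraries and at 8.12 and 9.77 FPKM in the Tox4 libraries, on 186, 160, 279 and 291 reads (means 4.39 ± 0.267 and 8.94 ± 1.17 FPKM, SD, n = 2). The groups were apart, but the Tox4 libraries differed from each other by 18.4% of their mean, 2.21 times the SD that counting alone gives. The difference was 0.88 (SE 0.10) on the log2(FPKM + 1) scale, and it was 0.76 without Tox4 replicate 2 and 1.00 without Tox4 replicate 1.

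Sez6 encodes a neuronal membrane protein with complement control and CUB domains that acts in dendrites and synapses (ENSMUSG00000000632, chromosome 11, 77930800 to 77979048, plus strand). It stood at 4.96 and 5.27 FPKM in the controls and at 10.9 and 9.997 FPKM after knockdown, on 424, 355, 723 and 574 reads (means 5.11 ± 0.214 and 10.5 ± 0.649 FPKM, SD, n = 2). The ratio of means was 2.04, and the lowest knockdown value was 1.90 times the highest control value.

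The adhesion genes differed in size. Ncam1, the neural cell adhesion molecule of the immunoglobulin family (ENSMUSG00000039542, chromosome 9, 49502136 to 49798925, minus strand), was at 14.2 and 14.1 FPKM with Luc esiRNA and at 18.9 and 17.5 FPKM with Tox4 esiRNA. These rested on 821 to 1080 reads per library, and the difference was 0.34 (SE 0.05) on the log2(FPKM + 1) scale. Lrrn2, a leucine-rich repeat membrane protein gene (ENSMUSG00000026443, chromosome 1, 132880273 to 132940005, plus strand), was the lowest of the 10 at 3.56 and 3.32 FPKM with Luc esiRNA and 5.65 and 6.74 FPKM with Tox4 esiRNA, on 208, 153, 256 and 265 reads. The means were 14.1 ± 0.0824 and 18.2 ± 0.943 FPKM for Ncam1 and 3.44 ± 0.171 and 6.19 ± 0.775 FPKM for Lrrn2 (SD, n = 2). Neither gene overlapped between groups, and the gap between the Tox4 libraries of Lrrn2 was 2.02 times the counting SD. The gap between the Luc libraries of Ncam1 was 0.824% of their mean, under the 4.66% from counting alone, so that SD understates the uncertainty. An annotated antisense gene, Gm11149, shares 417 bases with Ncam1 exons and was not analysed here.

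The progenitor and cytoskeletal genes differed among themselves. Fabp7, the brain fatty acid-binding protein of radial glia (ENSMUSG00000019874, chromosome 10, 57784881 to 57788450, plus strand), was at 5.07 and 4.96 FPKM in the Luc libraries and at 10.01 and 9.36 FPKM in the Tox4 libraries, on 79, 61, 121 and 98 reads, the fewest of the 10. Nes, the nestin gene (ENSMUSG00000004891, chromosome 3, 87971078 to 87980451, plus strand), was at 52.7 and 51.5 FPKM with Luc esiRNA and at 49.9 and 49.8 FPKM with Tox4 esiRNA. Tubb3, the class III beta-tubulin gene (ENSMUSG00000062380, chromosome 8, 123411424 to 123422015, plus strand), was at 12.7 and 13.4 FPKM with Luc esiRNA and at 12.5 and 13.5 FPKM with Tox4 esiRNA. The means went from 5.02 ± 0.0771 to 9.69 ± 0.465 FPKM for Fabp7 (SD, n = 2), a ratio of 1.93. The gap between its Luc libraries was 2.17% of their mean, under the 17.0% that counting reads alone gives as 1 SD. Between its Tox4 libraries the gap was 6.79%, under 13.6%, so the printed SDs understate the uncertainty. The means were 52.1 ± 0.872 and 49.9 ± 0.0759 FPKM for Nes, a ratio of 0.958, and 13.02 ± 0.515 and 13.01 ± 0.754 FPKM for Tubb3, a ratio of 0.999. The Nes values, on 4145 to 6523 reads, did not overlap, with the Tox4 libraries lower, as in 26.7% of all tested genes. Those of Tubb3 did overlap. The gap between the Tox4 libraries of Nes was 0.215% of their mean, under the 2.12% from counting alone, so that SD understates the uncertainty. Tubulin genes are close paralogs, and how reads with several matches were counted is not given in the sources used here.

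The place of the 8 genes in the fit over all genes moved with its settings, which is given as a description only. Without Luc replicate 1 and without Luc replicate 2 they numbered 5, with Cbln1, Ncam1 and Lrrn2 no longer past it, and without Tox4 replicate 1 they numbered 7, with Ncam1 lost. Over the 4 libraries left out in turn the difference of Ncam1 was 0.29 to 0.39, that of Lrrn2 0.58 to 0.80 and that of Svop 1.04 to 1.10 on the log2(FPKM + 1) scale; where groups do not overlap, leaving out 1 library cannot turn the sign. With no intensity trend in the variance model 4 of the 8 were past the threshold, and Cbln1, Ptn, Ncam1 and Lrrn2 were not.

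**Figure D2:**
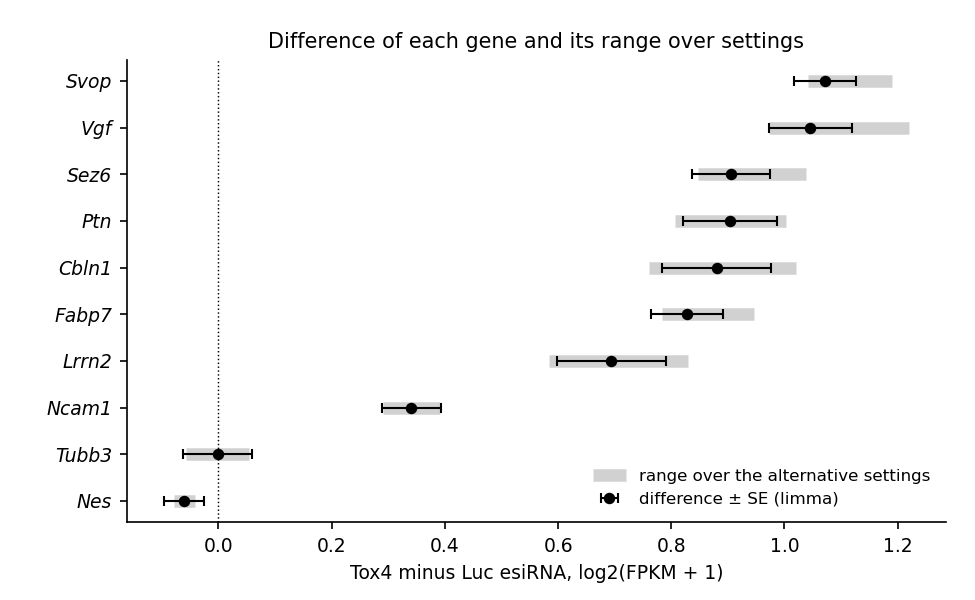
Difference between Tox4 and Luc esiRNA of each gene on the log2(FPKM + 1) scale, with points and bars for the limma estimate ± SE from 2 libraries per group and grey bands for the range over the alternative settings, those with 1 library left out included. The band of Svop runs from 1.04 to 1.19, that of Ncam1 from 0.29 to 0.39, that of Nes from -0.08 to -0.04, and that of Tubb3 spans 0.

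Levels per length also changed order. With Luc esiRNA the means ran from Nes (52.1 FPKM) through Ptn (19.6), Ncam1 (14.1), Tubb3 (13.02), Svop (6.31), Sez6 (5.11), Fabp7 (5.02), Cbln1 (4.39) and Vgf (4.29) to Lrrn2 (3.44). In that order the values of Sez6 and Fabp7 overlapped, as did those of Cbln1 and Vgf, and the other neighbours did not. With Tox4 esiRNA Svop (14.4 FPKM) stood above Tubb3 (13.01), and Vgf (9.92) above Fabp7 (9.69) and Cbln1 (8.94), although the values of Fabp7 overlapped those of both. Among all tested genes Svop went from percentile 32.2 to 56.2 of level, Vgf from 23.6 to 44.6 and Ptn from 65.5 to 82.5, while Nes stayed near percentile 88 (88.1 and 87.6).

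**Figure D3:**
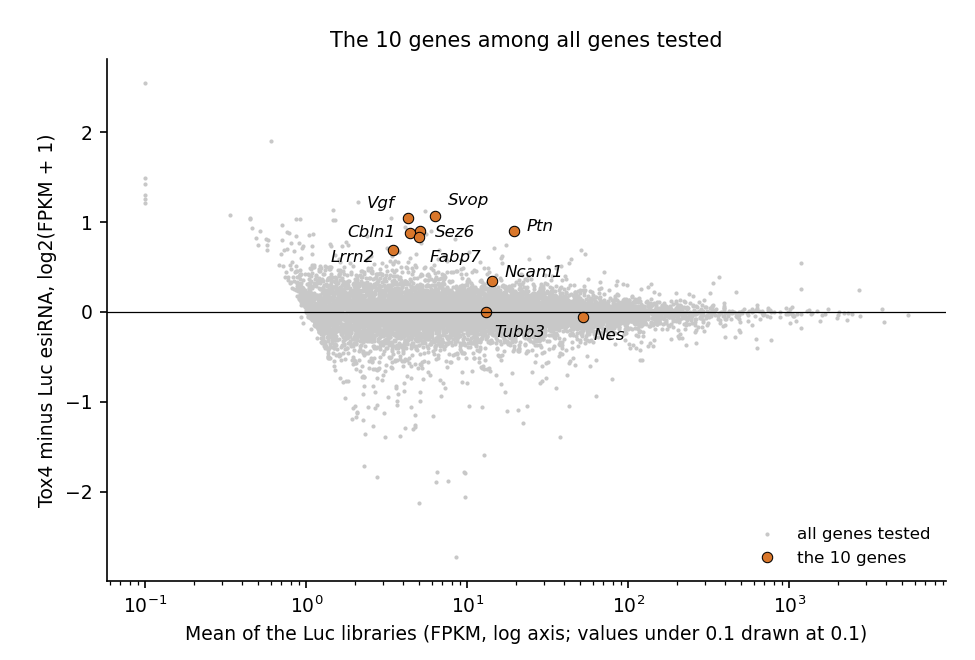
Difference between Tox4 and Luc esiRNA on the log2(FPKM + 1) scale (vertical axis) against the mean FPKM of the Luc libraries (log axis) for the 12403 genes tested (grey) and the 10 genes (orange). Those past the threshold except Ptn (19.6 FPKM) and Ncam1 (14.1 FPKM) lie between 3.44 and 6.31 FPKM in the controls, and Nes, at 52.1 FPKM, lies near 0.

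Sequences before the transcription start are shown for the 5 members found in the RefSeq promoter table (GRCm38.p6), 3 that were higher (Ptn, Fabp7 and Lrrn2) and 2 that were not past the threshold (Nes and Tubb3), so that both kinds can be read side by side. The 250 bases before the RefSeq start were searched on both strands for 7 motifs. They were the TATA box TATAAA, the box of letters CCAAT, the GC box GGGCGG, the SOX core CATTGT, the octamer of Oct factors ATGCAAAT, the E-box CAGCTG and the cyclic AMP response element TGACGTCA. No 2 matches shared bases. Capitals mark the matches, and bases after the first GENCODE start are not shown.
Ptn: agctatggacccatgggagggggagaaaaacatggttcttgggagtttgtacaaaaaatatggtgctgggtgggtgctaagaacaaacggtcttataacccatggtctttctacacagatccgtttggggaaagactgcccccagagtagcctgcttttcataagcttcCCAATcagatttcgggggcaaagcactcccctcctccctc
Fabp7: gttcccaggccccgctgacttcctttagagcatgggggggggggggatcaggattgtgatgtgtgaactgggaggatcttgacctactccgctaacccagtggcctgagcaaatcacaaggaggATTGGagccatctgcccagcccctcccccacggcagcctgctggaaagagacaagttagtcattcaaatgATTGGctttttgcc
Lrrn2: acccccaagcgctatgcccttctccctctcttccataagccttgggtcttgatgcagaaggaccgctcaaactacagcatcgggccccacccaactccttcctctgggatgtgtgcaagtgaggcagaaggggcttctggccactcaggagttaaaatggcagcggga
Nes: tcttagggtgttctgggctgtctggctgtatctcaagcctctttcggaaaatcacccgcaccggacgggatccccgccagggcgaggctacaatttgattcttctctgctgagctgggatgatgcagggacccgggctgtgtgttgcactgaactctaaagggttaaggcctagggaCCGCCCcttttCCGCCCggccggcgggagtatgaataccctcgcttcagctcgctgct
Tubb3: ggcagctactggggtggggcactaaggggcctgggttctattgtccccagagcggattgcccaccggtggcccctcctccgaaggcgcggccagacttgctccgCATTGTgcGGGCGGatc
The stretches are chr6:36810221-36810429 (minus strand, written 5′ to 3′), chr10:57784673-57784880, chr1:132880105-132880272, chr3:87970843-87971077 and chr8:123411303-123411423 (plus strand). Ptn had 1 CCAAT match, 81 to 77 bases before the RefSeq start, Fabp7 had 2, 126 to 122 and 56 to 52 bases before it, and Lrrn2 had no match to any of the 7 motifs. Nes had 2 GC boxes, and Tubb3 had 2 GC boxes, 2 SOX cores and 1 CCAAT match, of which 1 GC box (138 to 133 bases before its RefSeq start) and 1 SOX core (146 to 141 bases) fall in the printed stretch. Among all 32851 windows of this length 33.8% held CCAAT, 32.7% the GC box, 10.7% the SOX core, 12.4% TATAAA, 13.001% the E-box, 1.60% the octamer and 1.55% the cyclic AMP response element. None of the 5 windows held TATAAA, the octamer, the E-box or the cyclic AMP response element. The share of G and C was 52.0% for Ptn, 54.8% for Fabp7, 61.6% for Lrrn2, 58.8% for Nes and 68.0% for Tubb3, against a median of 52.4% over all windows.

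The nearest genes on the chromosome gave 1 call, a share near that of all tested genes. Of the 20 nearest tested genes on either side of the 10, 1 rose in limma, 0 fell and 19 were not past the threshold, against 4.51% of all tested genes past it. The 1 called was Zfp423, a zinc finger factor gene 189 kb from Cbln1. It went from 9.09 and 9.08 FPKM to 12.6 and 13.4 FPKM (log2 difference 0.47, SE 0.05, limma adjusted p = 0.0140). The call did not hold when Luc replicate 1 or Luc replicate 2 was dropped, or with no intensity trend. Ap1s1, 1.64 kb from Vgf, was at 24.9 and 24.4 FPKM with Luc esiRNA and 26.8 and 25.2 FPKM with Tox4 esiRNA. Phf12, 3.71 kb from Sez6, was at 22.6 and 22.95 against 25.2 and 25.4 FPKM, and neither gene passed.

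Other neural genes were read from 10 lists that hold none of the 10 genes. Of 278 genes on the lists 214 had a row and 152 passed the filter. In limma 9 of these 152 rose (5.92%, against 1.89% of all tested genes), 5 fell (3.29%, against 2.62%) and 138 did not pass, with a median difference of 0.03 against -0.0034 over all tested genes. The lists were chosen with earlier results of these data known. Sox1 was the 1 rise that remained when Luc replicate 1 or Luc replicate 2 was dropped, and Sox1 was also the only one of the 14 genes past the threshold with each library left out in turn (adjusted p up to 0.0304). With no filter on low values the calls of C1ql1, Dpysl4, Prom1, Ptprs and Sox2 were lost, and with no intensity trend all but that of Sox1.

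**Figure D4:**
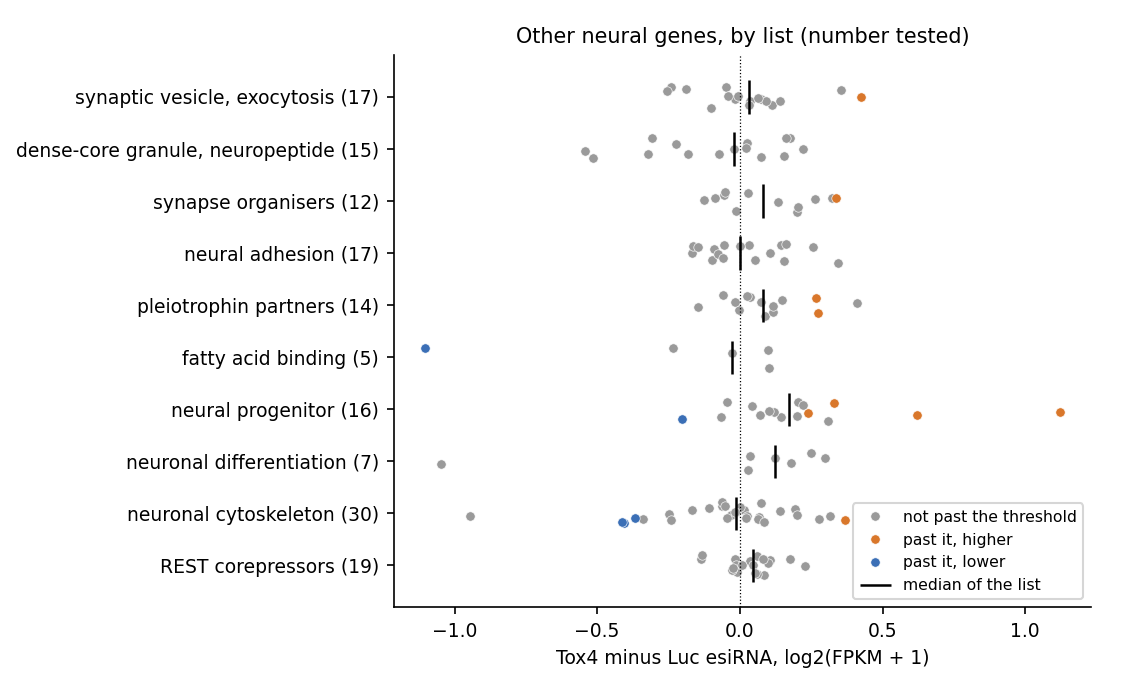
Difference between Tox4 and Luc esiRNA on the log2(FPKM + 1) scale for the tested genes of 10 neural gene lists, with orange and blue points for genes past the limma threshold as higher and lower, grey points for the rest and black bars for list medians. Most points lie near 0, the neural progenitor list holds 4 of the 9 rises, and the fatty acid-binding list holds the lowest point, Fabp3.

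Genes of vesicles and granules gave few calls beside Svop and Vgf. The synaptic vesicle and exocytosis list had 17 tested members, of which 1 rose, 0 fell and 16 missed the threshold (median 0.03; 2 higher and 2 lower at an unadjusted p under 0.05, and 2 and 1 in limma-voom on recovered reads). The rise was that of Cplx2, a complexin that clamps the fusion machinery, from 5.77 and 5.55 to 7.99 and 7.89 FPKM (log2 difference 0.42, SE 0.06, limma adjusted p = 0.0239, 9.57e-05 to 0.147 over the alternatives), and it was lost without Luc replicate 1, Luc replicate 2 or Tox4 replicate 1. Sv2a, a vesicle protein of the same transporter superfamily as Svop, was at 4.28 and 4.25 against 4.17 and 4.24 FPKM. Of 15 tested dense-core granule and neuropeptide genes none passed in limma (median -0.02; 2 higher and 3 lower at an unadjusted p under 0.05, and 1 and 2 in limma-voom). The most abundant were Pcsk1n, an inhibitor of prohormone convertase, at 59.99 and 63.6 against 66.6 and 72.1 FPKM (0.16, limma adjusted p = 0.143), and Cpe, a carboxypeptidase that trims peptides, at 26.6 and 26.02 against 26.7 and 26.9 FPKM. Chga, the granule protein chromogranin A, was at 2.06 and 1.91 against 1.67 and 2.02 FPKM. On the log2(FPKM + 1) scale the list's lowest difference was that of Bdnf, a secreted neurotrophin gene (-0.54, limma adjusted p = 0.0733, past the threshold as lower in limma-voom). Bdnf was at 1.39 and 1.58 against 0.721 and 0.689 FPKM on 87, 78, 35 and 29 reads, a ratio of means of 0.475. The ratio was lower for Vip, a neuropeptide gene that did not pass in limma, at 0.462 on 16, 6, 5 and 3 reads. Ptprn, a granule membrane protein gene, was at 16.9 and 17.99 against 13.01 and 14.5 FPKM (-0.32, limma adjusted p = 0.0544); it was past the threshold as lower in limma-voom, at a mean of at least 5 FPKM, with the replicate number as a block and without Tox4 replicate 2. Of all 12403 tested genes 1243 stood at an unadjusted p under 0.05 as higher and 1431 as lower, and limma-voom called 5.95% higher and 5.87% lower.

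Synapse organisers and adhesion genes outside the 10 gave 1 call. Among all tested genes 4.51% were past the threshold in either direction. Among 12 tested organisers 1 rose, 0 fell and 11 missed the threshold (median 0.08; 5 higher and 0 lower at an unadjusted p under 0.05, and 4 and 0 in limma-voom). C1ql1, a secreted C1q protein like Cbln1, rose from 7.96 and 7.55 to 9.72 and 10.4 FPKM (log2 difference 0.34, SE 0.06, limma adjusted p = 0.0433), a call lost with any 1 library left out, with no filter (adjusted p = 0.0601) and with the replicate number as a block (adjusted p = 0.0533; up to 0.211 over the alternatives). Nlgn2, a postsynaptic neuroligin, was at 13.7 and 14.6 against 16.1 and 16.6 FPKM (0.20, limma adjusted p = 0.0950), and Sez6l2, a relative of Sez6, at 5.40 and 5.75 against 5.69 and 5.70 FPKM. None of 17 tested adhesion genes passed in limma (median 0.0016; 4 higher and 1 lower at an unadjusted p under 0.05, and 4 and 0 in limma-voom). Cadm4 was at 32.6 and 36.2 against 29.3 and 31.7 FPKM and Cadm1 at 26.2 and 26.7 against 29.6 and 27.5 FPKM; both encode immunoglobulin adhesion molecules. Lrrn1, a relative of Lrrn2, was at 4.93 and 5.19 against 4.74 and 4.92 FPKM.

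Partners and relatives of Ptn and Fabp7 moved in both directions. Among all tested genes 1.89% rose and 2.62% fell in limma. Of 14 tested genes around pleiotrophin 2 rose, 0 fell and 12 missed the threshold in limma (median 0.08; 4 higher and 1 lower at an unadjusted p under 0.05, and 4 and 0 in limma-voom). Sdc1, a heparan sulfate proteoglycan of the syndecan family, rose from 20.9 and 21.3 to 25.2 and 26.3 FPKM (0.27, SE 0.04, limma adjusted p = 0.0308). Ptprs, a receptor phosphatase that binds such proteoglycans, rose from 65.4 and 70.4 to 84.03 and 79.5 FPKM (0.27, SE 0.05, limma adjusted p = 0.0449). Neither call held when Luc replicate 1 or Luc replicate 2 was dropped; that of Sdc1 was also lost without Tox4 replicate 2 and that of Ptprs without Tox4 replicate 1 and under quantile normalization (adjusted p up to 0.175 and 0.201 over the alternatives). Mdk, midkine, the only other growth factor of the pleiotrophin family, was at 299.9 and 286 against 278 and 307 FPKM, with overlapping groups, and Ptprz1, a pleiotrophin receptor, was at 1.08 and 1.10 against 1.10 and 0.913 FPKM. In the lipid carrier family 1 of 5 tested genes fell, none rose and 4 did not pass (median -0.03; 0 higher and 1 lower at an unadjusted p under 0.05, and 0 and 1 in limma-voom). Fabp3, the heart-type fatty acid-binding protein gene, fell from 16.4 and 19.1 to 6.81 and 8.72 FPKM on 84, 77, 27 and 30 reads (-1.10, SE 0.12, limma adjusted p = 0.0121, lost without Luc replicate 2 at 0.0726), while Fabp5, the epidermal type, was at 23.9 and 21.7 against 23.8 and 25.1 FPKM.

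Neural progenitor genes held the most rises of any list, 25% of its tested members against 1.89% of all tested genes. Falls were 6.25% of them, against 2.62% of all tested genes. Of 16 tested members 4 rose, 1 fell and 11 did not pass (limma; median 0.17; 7 higher and 1 lower at an unadjusted p under 0.05, and 6 and 1 in limma-voom). The SOX factor gene Sox1, an early neural marker, rose from 5.28 and 5.57 to 12.3 and 13.7 FPKM (1.12, SE 0.07, limma adjusted p = 0.00263). Irx3, a homeobox gene of the neural tube, rose from 6.68 and 7.61 to 11.005 and 12.02 FPKM (0.62, SE 0.08, limma adjusted p = 0.0172). Msi1, an RNA-binding protein of progenitors, rose from 22.7 and 21.5 to 28.3 and 27.7 FPKM (0.33), and Sox2, which pluripotent cells also need, from 76.3 and 76.4 to 93.2 and 87.6 FPKM (0.24). Prom1, the prominin membrane protein gene, chosen for mention after its value was seen, fell from a mean of 34.1 to 29.5 FPKM (-0.20, limma adjusted p = 0.0478). The calls of Irx3, Msi1 and Sox2 did not hold when Luc replicate 1 or Luc replicate 2 was dropped, nor that of Sox2 without Tox4 replicate 1 (adjusted p up to 0.0933, 0.121 and 0.179 over the alternatives). Prom1 was lost with any 1 library left out, under both other scalings and with the replicate number as a block (adjusted p up to 0.234). Vim, the filament partner of nestin, was at 188 and 181 against 194 and 207 FPKM.

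Genes of neuronal differentiation and of the neuronal cytoskeleton gave 1 rise and 3 falls. Among all tested genes 1.89% rose and 2.62% fell in limma. Of 7 tested differentiation genes none passed in limma (median 0.12; 1 higher and 1 lower at an unadjusted p under 0.05, and 1 and 0 in limma-voom). Elavl2, a neuronal RNA-binding protein, was at 7.26 and 7.16 against 7.79 and 7.05 FPKM, and Insm1, a zinc finger factor of neuroendocrine progenitors, at 3.54 and 3.72 against 4.08 and 4.39 FPKM. Of 30 tested cytoskeletal genes 1 rose, 3 fell and 26 did not pass in limma (median -0.02; 5 higher and 7 lower at an unadjusted p under 0.05, and 4 and 4 in limma-voom). Tuba4a fell from 32.3 and 32.1 to 23.4 and 24.5 FPKM (-0.41, SE 0.04, limma adjusted p = 0.00965), the axonal motor gene Kif1a from 32.7 and 35.8 to 26.6 and 24.5 FPKM (-0.41), and Tubb2b from 111 and 104 to 85.6 and 80.3 FPKM (-0.37). Dpysl4, a collapsin response mediator, rose from 5.70 and 6.16 to 7.85 and 8.02 FPKM (0.37, SE 0.07, limma adjusted p = 0.0400). None of these 4 calls held when Luc replicate 1 or Luc replicate 2 was dropped, nor that of Dpysl4 without either Tox4 library (adjusted p up to 0.0751 for Tuba4a, 0.132 for Kif1a, 0.110 for Tubb2b and 0.213 for Dpysl4 over the alternatives), and the tubulins share sequence with their paralogs. REST, with its corepressors, keeps many neuronal genes silent in other cells. None of 19 tested genes of that list passed in limma (median 0.05; 2 higher and 1 lower at an unadjusted p under 0.05, and 2 and 0 in limma-voom). Rest itself was at 29.2 and 30.4 against 31.6 and 30.1 FPKM, Rcor2 at 79.5 and 79.3 against 75.9 and 79.9 FPKM and Kdm1a at 65.02 and 62.6 against 65.1 and 61.8 FPKM. The names Sv2a, Chga, Bdnf, Vip, Ptprn, Sez6l2, Lrrn1, Mdk, Ptprz1, Vim and Rest were added after their values were seen. They are relatives or regulators of the 10 genes or, for Bdnf, Vip and Ptprn, were named for their differences.

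Markers of other cell types were summed in each library. The 7 neural crest markers with a row summed to 76.4 and 77.6 FPKM in the Luc libraries and 99.2 and 94.3 FPKM in the Tox4 libraries. Of their 5 tested members 2, Ngfr and Sox9, rose in limma and 0 fell, against 1.89% and 2.62% of all tested genes. Ngfr went from 23.7 and 24.9 to 38.1 and 35.9 FPKM and was past the threshold under all 13 alternatives. Sox9 was lost with any 1 library left out, with no filter, with no intensity trend and with the replicate number as a block. Foxd3 (23.6 and 22.7 against 24.0 and 23.5 FPKM), Snai2 (0.957 and 1.14 against 1.12 and 0.949 FPKM) and Ets1 (9.42 and 10.1 against 11.7 and 10.9 FPKM) did not pass. The crest factor gene Sox10 was low in every library (0.464 and 0.450 against 0.704 and 1.06 FPKM). So was Tfap2a (0.860 and 0 against 1.66 and 0.960 FPKM), on 4, 0, 6 and 3 reads. Most of the neural crest sum was Ngfr, Foxd3 and Sox9 (17.4 and 18.3 against 21.9 and 21.1 FPKM for Sox9). The 5 astrocyte markers summed to 242 and 240 against 215 and 215 FPKM. Most of that was Aldoc (115 and 114 against 94.9 and 95.4 FPKM) and Gja1 (116 and 116 against 109 and 109 FPKM). Aldoc fell (-0.27, limma adjusted p = 0.0146), a call lost with either Luc library left out and with no intensity trend, and Gja1 did not pass. Gfap was low (0.745 and 0.708 against 0.721 and 0.277 FPKM). Sums were 7.05 and 7.46 against 6.24 and 6.64 FPKM for 5 oligodendrocyte lineage markers, 20.8 and 20.99 against 19.1 and 19.99 FPKM for 7 fibroblast markers and 6.33 and 5.63 against 5.75 and 6.95 FPKM for 3 endocrine markers. No marker with a row on any of these lists was at 0 in all 4 libraries. Mitochondrial transcripts took 0.864% and 0.840% of reads in the Luc libraries and 1.05% in both Tox4 libraries. The part of the neural crest markers and of the mitochondrial share in the differences of the 10 genes was not tested.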

How the data were processed

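Polyadenylated RNA of 4 libraries was sequenced. The authors deposited FPKM values, with the same values in a file per library and in 1 series table. Named in the submitters' processing notes are CASAVA 1.8, STAR 2.3.0e and GRCm38.p1; the counting program, annotation and strand use were not given in the sources used here. Groups and replicate numbers came from the titles. Positions are from GENCODE M21 (GRCm38), in which 15223 identifiers were found.

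Values were tested as log2(FPKM + 1) with limma 3.58.1 (R 4.3.3; Python 3.11.15 elsewhere) in a two-sided moderated test, the prior variance following intensity, and p-values adjusted by Benjamini-Hochberg over the 12403 genes that averaged at least 1 FPKM (2 residual and 4.01 prior degrees of freedom). Whole reads were worked back from the FPKM values as the smallest whole numbers that gave a whole gene length. A factor shared by the reads and the length of a gene would go unseen, so both could be larger multiples. In genes where a gene length could be recovered, 100% of values above 0 were whole multiples to a relative tolerance of 1e-09. Of tested genes 4.29% needed a common factor to reach a whole gene length within 0.02 bases. Reads were 12778044 to 19008803 per library, in each 97.7% of the depth that the scaling of the FPKM values implied. Fit and read recovery were tested on simulated data. The alternatives were pseudocounts of 0.1 and 0.5, no filter, a mean of at least 5 FPKM, no trend, median scaling, quantile normalization, the replicate number as a block, limma-voom on the reads and each library left out.

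The 10 genes and all lists were chosen with earlier results of these data known. Named by rule were the 10 genes, Tox4, up to 4 genes past the threshold per list by size of difference, filled up to 2 with the most abundant, and overlapping or neighbouring genes on which a result turned. Some values that this rule names are not reported here.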

Additional observations from a re-analysis of the deposited data

How the results depend on the processing

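Over all genes the rises and falls numbered 234 and 325. They were 146 and 202 with no filter, 33 and 45 with no intensity trend and 738 and 728 in limma-voom on recovered reads, and the rises were 365 at a mean of at least 5 FPKM. With 1 library left out the rises ranged from 27 to 176 and the falls from 34 to 296. Of the listed neural genes 9 rose and 5 fell. The rises were 5 with no filter, 1 with no trend and 28 in limma-voom, and 1 to 6 with 1 library left out. The falls were 9 at a mean of at least 5 FPKM, 0 with no trend (15 at an unadjusted p under 0.05) and 9 in limma-voom, and 0 to 8 with 1 library left out. The count of 0 came without Luc replicate 2 (limma; 14 at an unadjusted p under 0.05). The cause was not tested, except that the filters change the number of genes adjusted over and a fit with a library left out has fewer samples. With the replicate number as a block the rises and falls were 222 and 334 over all genes and 8 and 7 among listed genes. The replicate numbers are not stated to mark a shared culture or day, so they were not taken to pair the libraries. Deviations of same-numbered libraries had a correlation of -0.04 across genes. Of the 10 genes, 8 were past the threshold in the block fit and at both other pseudocounts, both scalings, no filter and limma-voom, and 7 at a mean of at least 5 FPKM, where Lrrn2 was not tested. Fabp7, on 61 to 121 reads per library, is the gene most limited by depth. The lone library of a group is assumed to vary like the other group.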

Other observations

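Of the 214 listed neural genes with a row, 62 had a mean under 1 FPKM and were not tested. The groups overlapped for 38 of the 62, and did not for 17 that were higher and 7 that were lower with Tox4 esiRNA. Of all tested genes 25.3% did not overlap as higher and 26.7% as lower. The share over all genes under the filter was not worked out, so nothing is read from these counts. Myt1l, a zinc finger factor gene of neurons, was at 0.649 and 0.813 FPKM in the controls and at 1.15 and 1.05 FPKM after knockdown, on 83, 82, 114 and 90 reads. Flrt2, an adhesion gene, was at 0.816 and 0.646 against 0.263 and 0.152 FPKM, on 8, 5, 2 and 1 reads. Among those that overlapped were Pax6, a homeobox gene of the neural tube and eye field (0.436 and 0.442 FPKM in the controls, 0.112 and 0.778 FPKM after knockdown), the adhesion gene L1cam (0.673 and 0.698 against 0.742 and 0.601 FPKM) and the neuronal RNA-binding protein gene Elavl3 (0.885 and 0.942 against 0.744 and 0.992 FPKM). All 5 genes were picked for mention after their values were seen.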
